A study of Mus musculus with 4 samples.

Results

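The genes described here encode the subunits of the receptors for GABA, glutamate and acetylcholine (nicotinic), taken as every gene symbol in the deposited table that begins with Gabra, Gabrb, Gabrg, Gabrd, Gabre, Gabrq, Gabbr, Gria, Grin1, Grin2, Grin3, Grik, Grm, Chrna, Chrnb, Chrnd, Chrne or Chrng. This rule found 57 of the 27998 genes listed, and it used no measured value. The data came from the GFP-positive region of the ventral hypothalamus, dissected as the arcuate nucleus (ARC), of Pomc-eGfp embryos on the C57BL/6 strain, at E15 by the age label (the sample titles read E15_5, and which is right is not settled here). These embryos carry a GFP reporter under Pomc regulatory sequence, and there was no second genotype, treatment or age. The embryos were combined before dissociation, and the 4 labelled samples were 4 sequencing runs whose cells lie in 1 table with no map from cell to run or embryo. The cells therefore count as 1 sample, no test between groups was possible, and each interval given (95%) covers counting error only.

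Cells were grouped by UMIs (unique molecular identifiers, each standing for 1 captured transcript). Neurons had at least 2 UMIs of Stmn2, which encodes a microtubule regulator of growing axons. Neurons were divided by the gates Otp, Dlx1, Fezf1 or Nr5a1, Robo3 and Gbx2 at 1 UMI or more, and Pomc at 3 UMIs or more, and a neuron had to match exactly 1 gate. Of 6351 cells kept, 4006 were neurons, of which 633 fell in the Otp gate, 261 in Dlx1, 172 in Pomc, 506 in Fezf1/Nr5a1, 344 in Robo3 and 89 in Gbx2. A further 1792 neurons matched no gate and 209 matched several. Outside neurons there were 657 progenitors (Sox2 at 1 UMI or more, Stmn2 at 1 or fewer), 629 pituitary cells, 230 vascular and mesenchymal cells, 34 macrophages and 795 cells that met no gate. Median depth ran from 2555 UMIs in the ungated non-neurons to 4288 in neurons with several gates. Levels are CPM, the UMIs of a gene per 1000000 UMIs of the group. UMIs were counted at the 3′ end, so a level is a share of molecules and is not scaled by transcript length.

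The gates were checked against marker genes. Otp neurons held Npy (587 CPM against 110 in all neurons) and Sst, and Fezf1/Nr5a1 neurons held Sox14 (253 against 77.3). Dlx1 neurons held Gad1 (55.4 against 15.5) and Gad2 (59.1 against 22.3), and Pomc neurons held Tbx3 (174 against 45.2) and Isl1 (401 against 203). These markers did not all set a gate apart, since Otp neurons held Isl1 at 652 CPM, Tbx3 at 89.4, Gad2 at 50.6 and Gad1 at 33.4. Robo3 neurons and Gbx2 neurons went against the ARC label. Nkx2-1, the transcription factor of the ventral hypothalamus, stood at 13.6 and 15.2 CPM in them, against 170 in all neurons. Robo3 neurons were instead high in the habenula markers Pou4f1 (1344 against 315) and Tac1, although Tac2 was at 5.02, and Gbx2 neurons in the thalamus markers Tcf7l2 (6645 against 951) and Lhx9 (910 against 206), although Kitl was not raised. The thalamus markers did not belong to Gbx2 neurons alone, since Robo3 neurons held Lhx9 at 758 CPM, Tcf7l2 at 1870 and Lhx2 at 68.9 (38.9 in all neurons). The list of ventromedial hypothalamus markers, which includes the gate genes, summed to 1047 CPM in Fezf1/Nr5a1 neurons and 347 in all neurons. Nkx2-1 was at 331 CPM in Fezf1/Nr5a1 neurons, but Tbx3 was at 11.2, against 45.2 in all neurons. Whether these cells belong to the ARC was not tested. The Robo3, Gbx2 and Fezf1/Nr5a1 groups are named by their gate gene only. In Pomc neurons the 5 pituitary markers summed to 133 CPM, against 51.5 in all neurons. Leaving out the Pomc neurons that held a pituitary UMI removed the single Pomc call given below.

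GABA-A receptors are chloride channels built of 5 subunits, usually from alpha, beta and gamma genes, and in young neurons with high internal chloride they can depolarise the cell. GABA-B receptors are G protein-coupled and need both Gabbr1, which binds GABA, and Gabbr2, which couples to the G protein. AMPA, NMDA and kainate receptors are glutamate-gated cation channels of 4 subunits, and metabotropic glutamate receptors act through G proteins. Nicotinic receptors are acetylcholine-gated cation channels of 5 subunits, for which Chrna4 with Chrnb2 and Chrna3 with Chrnb4 are the usual neuronal pairings. The ARC houses the Pomc and Agrp neurons that control feeding, and fast GABA and glutamate input sets their firing in the adult.

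Subunit genes of these families often lie side by side in the genome, and the 3 promoters shown are those of members that were high in a single gate. Chrna3 and Chrnb4 are neighbours on the minus strand of chromosome 9 and peaked in Robo3 neurons, and Gabra4, on the minus strand of chromosome 5, peaked in Gbx2 neurons. The windows run from 250 bases before to 50 bases after the RefSeq start (GRCm38.p6): chr9:55026513-55026812 for Chrna3, chr9:55048495-55048794 for Chrnb4 and chr5:71658259-71658558 for Gabra4, all minus strand and 5′ to 3′. Capitals mark the GC box GGGCGG or its reverse complement.
Chrna3: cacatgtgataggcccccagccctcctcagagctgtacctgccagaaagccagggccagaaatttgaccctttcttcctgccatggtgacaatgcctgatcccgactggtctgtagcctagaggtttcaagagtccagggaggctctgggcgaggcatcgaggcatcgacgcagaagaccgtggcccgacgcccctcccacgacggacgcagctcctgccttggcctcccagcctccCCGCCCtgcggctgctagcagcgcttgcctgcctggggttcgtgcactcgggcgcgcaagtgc
Chrnb4: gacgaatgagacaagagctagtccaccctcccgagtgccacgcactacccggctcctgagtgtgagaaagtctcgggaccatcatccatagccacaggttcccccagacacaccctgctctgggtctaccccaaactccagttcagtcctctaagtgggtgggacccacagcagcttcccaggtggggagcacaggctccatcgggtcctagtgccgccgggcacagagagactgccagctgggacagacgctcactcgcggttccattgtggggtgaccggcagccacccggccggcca
Gabra4: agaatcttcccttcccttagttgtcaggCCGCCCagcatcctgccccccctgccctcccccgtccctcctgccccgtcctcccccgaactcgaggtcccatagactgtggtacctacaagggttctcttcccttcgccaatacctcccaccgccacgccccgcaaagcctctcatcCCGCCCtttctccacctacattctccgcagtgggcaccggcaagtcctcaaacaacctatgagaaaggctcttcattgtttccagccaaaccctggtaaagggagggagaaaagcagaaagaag
Gabra4 held 2 GC boxes, Chrna3 held 1 and Chrnb4 held 0, where 35.6% of 32817 promoter windows of this length held at least 1 on either strand. None of these 3 windows held the homeodomain core TAAT, which 58.0% of windows held on either strand. The E-box CANNTG, not capitalised here, occurred 3 times in Chrna3, 2 times in Chrnb4 and 0 times in Gabra4, and 72.3% of windows held at least 1. A match here is a string of letters and says nothing of binding. The Gabra4 window lies within the annotated span of Gabrb1, which runs the other way. The strand setting of the counting is not given in the sources used here, so reads of Gabra4 and Gabrb1 cannot be told apart where the genes overlap, and the same limit holds for Gabra5.

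Of the 57 members, 45 had a UMI in more than 3 cells. Another 8 had no UMI in any kept cell: Gabra6, Grin2d, Chrng, Chrna1, Chrna2, Chrna6, Chrna10 and Chrnb3, and the other 4 (Gabrd, Grin3b, Grm6 and Chrna9) held 1 to 3 UMIs. Those at 0 include subunits known from the mature cerebellum (Gabra6) and from muscle (Chrna1, Chrng). The members together held 23406 UMIs, 0.0958% of all UMIs, and the top 5 genes held 60.9% of these. AMPA genes took 27.6% of the receptor UMIs, GABA-A genes 22.7%, GABA-B genes 21.4%, kainate genes 10.1%, NMDA genes 9.42%, nicotinic genes 5.003% and metabotropic glutamate genes 3.76%. Receptor transcripts were thus a small fraction of each cell, with a median of 3 distinct members in a neuron and 1 in a progenitor. At least 1 receptor UMI was found in 93.7% of neurons, 59.8% of progenitors and 40.9% of vascular and mesenchymal cells.

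**Figure D1:**
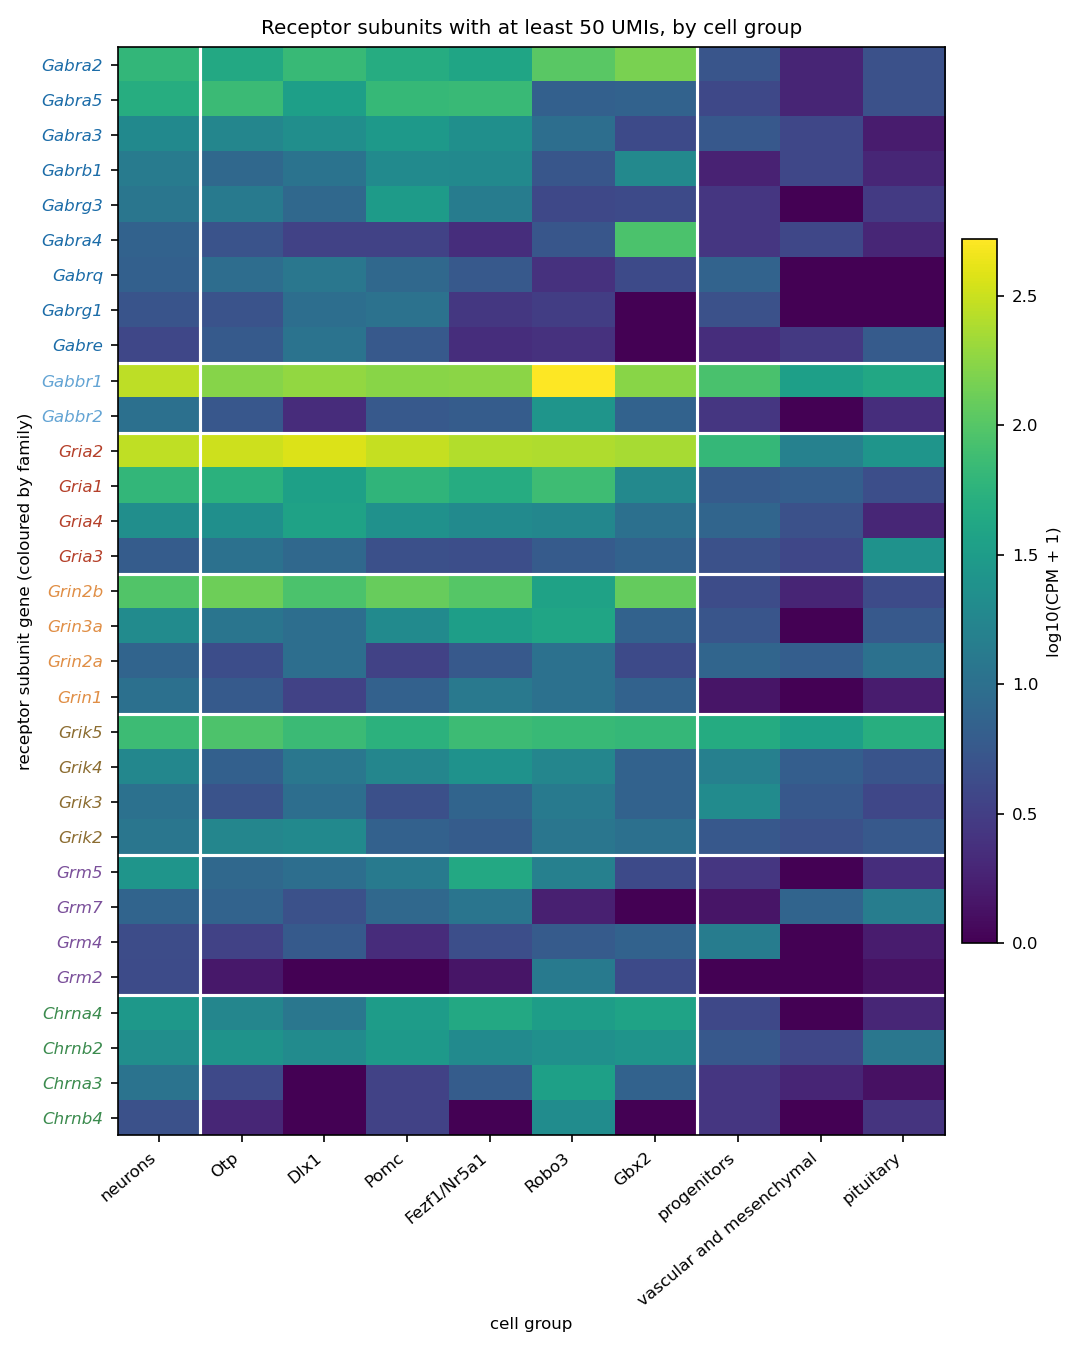
Level of 31 of the receptor subunits with at least 50 UMIs (rows, coloured by family) in all neurons, the 6 neuron gates, progenitors and non-neural cells (columns). Colour is log10(CPM + 1). Gria2 and Gabbr1 are bright in every neuron column, Gabra4 is bright in the Gbx2 column and Chrna3 and Chrnb4 in the Robo3 column.

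Most receptor genes that could be compared were more abundant in neurons than in progenitors. The summed receptor level was 1318 CPM in neurons (1300 to 1336) and 353 in progenitors (330 to 378). Genes were compared where at least 10 UMIs would fall in the smaller group at equal levels, which 30 members did. Of these, 23 were over 2-fold higher in neurons and 2 were over 2-fold lower, where 14.7% of 10637 genes were over 2-fold higher and 13.3% lower. The median log2 ratio was 2.21 over the 30 members and -0.02 over all genes compared. Members that reached the comparison only because neurons held them are part of that count, so it does not describe all 57. GABA-A genes higher in neurons included Gabra5 (16.4-fold), Gabra2 (14.97-fold), Gabrb1 (14.9-fold), Gabrg3 (6.32-fold), Gabra3 (4.01-fold) and Gabra4 (3.72-fold), while Gabrq was at 0.941-fold. For Gabbr2 the fold was 5.43 and for Gabbr1 3.23. Grin1 and Grm7 were 21.7-fold and 15.8-fold higher, each against a single UMI in progenitors, and Grin3a was 4.69-fold higher. The Grm7 call rests on how progenitors were gated, since its log2 ratio (3.98) was 0.91 with progenitors by Sox2 and Stmn2 alone and it passed 2-fold in 5 of 6 alternative settings. That of Gabra4 (1.90) was 0.94 with progenitors of at least 2 Sox2 UMIs and passed in 7 of 8. Below the limit for comparison, Grm2 had 49 UMIs in neurons and 0 in progenitors, at least 2.53-fold higher by the limit of 3 UMIs.

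Among families, NMDA genes differed most, at 129 against 14.6 CPM, or 8.85-fold (6.34 to 12.7). GABA-A genes were 5.62-fold higher in neurons (4.72 to 6.73), nicotinic genes 5.27-fold (3.65 to 7.91) and AMPA genes 4.72-fold (4.08 to 5.48). GABA-B genes were 3.27-fold higher (2.85 to 3.77) and metabotropic glutamate genes 2.58-fold (1.90 to 3.60). Kainate genes stood at 110 against 86.8 CPM, or 1.27-fold (1.10 to 1.48), so that transcripts of this family were nearly as frequent in progenitors. Vascular and mesenchymal cells also held kainate transcripts at 48.1 CPM, mostly Grik5.

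**Figure D2:**
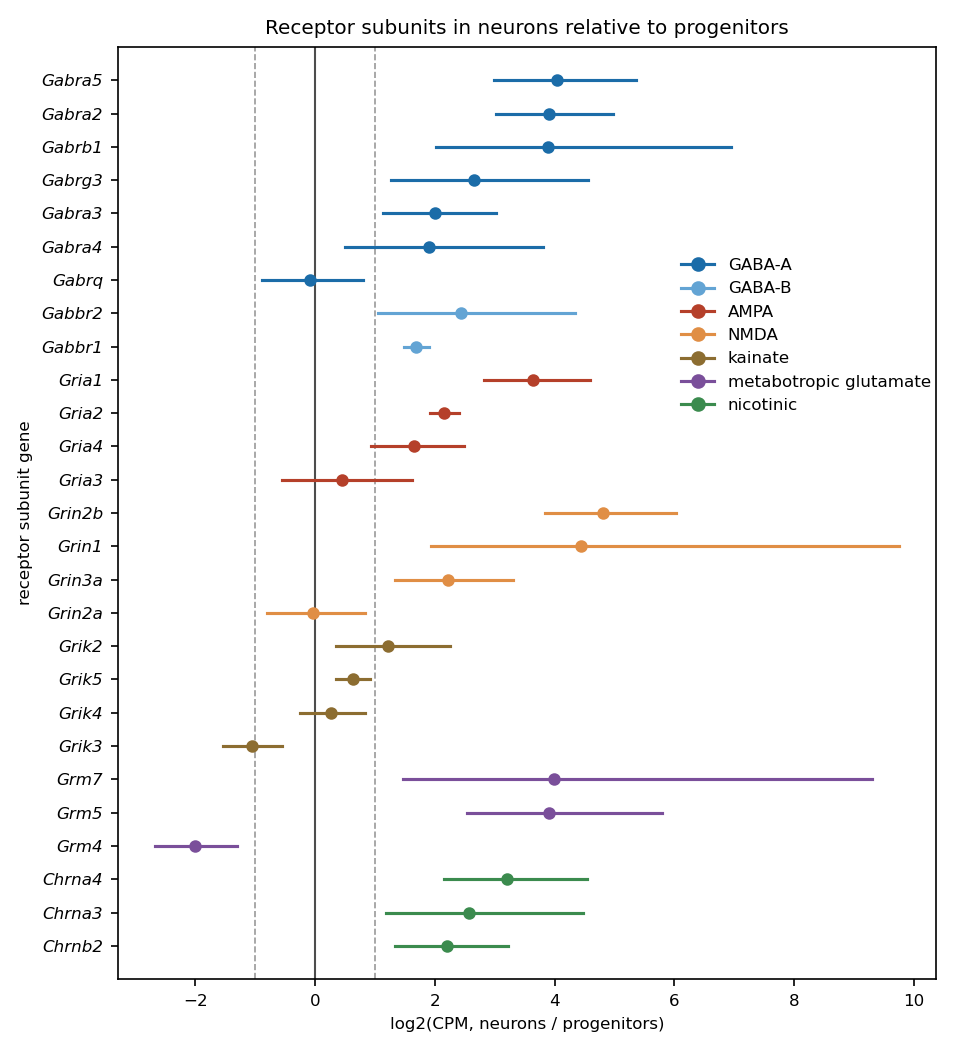
Log2 ratio of CPM in neurons over progenitors for 27 of the 30 receptor subunits that could be compared, with 95% intervals for counting error (lines), coloured by family. Dashed lines mark 2-fold. Points lie to the right of the upper dashed line for 20 genes, and Grik3 and Grm4 lie to the left of the lower one.

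The share of neurons with at least 1 UMI of a family depends on depth, so it was also taken after thinning each cell to 2167 UMIs. At equal depth, 50.7% of neurons held an AMPA UMI, against 13.8% of progenitors and 4.74% of vascular and mesenchymal cells, a group outside the nervous system given for comparison. How much of its share is free RNA was not tested. GABA-A UMIs were in 44.1%, 11.0% and 4.27% of the same groups. GABA-B UMIs were in 37.7%, 16.5% and 5.21%. NMDA UMIs were in 22.2%, 3.79% and 2.37%, so the progenitor share was near that of vascular and mesenchymal cells. Nicotinic UMIs were in 12.1%, 3.22% and 1.42%. For kainate genes, at 21.2%, 15.7% and 10.9%, and for metabotropic glutamate genes, at 8.16%, 3.41% and 3.79%, the groups were closer. Before thinning, 66.2% of neurons held an AMPA UMI, 58.1% a GABA-A UMI and 50.05% a GABA-B UMI, at median depths of 3408.5 UMIs in neurons, 2974 in progenitors and 3914.5 in vascular and mesenchymal cells. The same shares were 33.8% for NMDA, 33.1% for kainate, 19.8% for nicotinic and 14.0% for metabotropic glutamate genes.

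**Figure D3:**
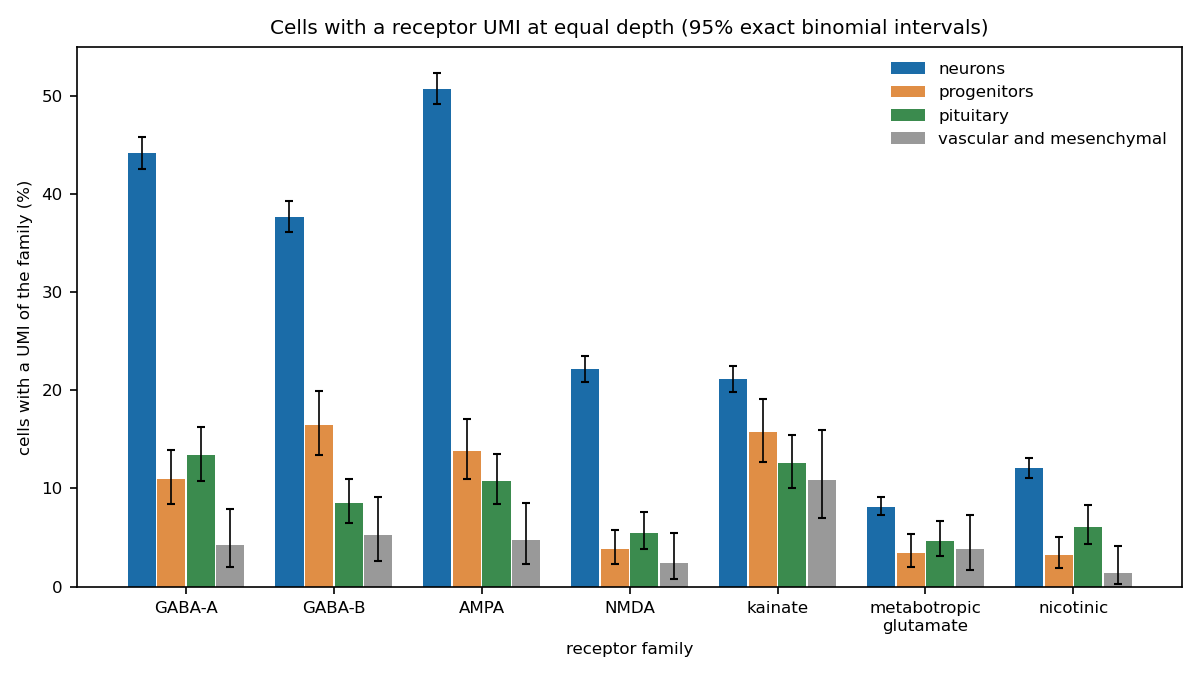
Percentage of cells with at least 1 UMI of each receptor family after thinning to 2167 UMIs per cell, in neurons, progenitors, pituitary cells and vascular and mesenchymal cells, with 95% exact binomial intervals. Neurons are highest in each family, from 50.7% for AMPA genes down to 8.16% for metabotropic glutamate genes, and the groups lie closest together for kainate and metabotropic glutamate genes.

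Between the neuron gates the summed receptor level varied little, from 1154 CPM in Gbx2 neurons (1040 to 1276) to 1471 in Robo3 neurons (1408 to 1536), while single subunits varied strongly. Each gate was compared with all other neurons. In Robo3 neurons 4 of 23 members compared were over 2-fold higher and 5 lower, where 2.54% and 6.16% of all genes compared were. In Otp neurons 1 of 29 was higher and 8 lower (all genes 1.04% and 4.32%). In Gbx2 neurons 1 of 9 was higher and 2 lower (1.97% and 6.55%). In Fezf1/Nr5a1 neurons 0 of 29 were higher and 3 lower (1.31% and 5%). In Dlx1 neurons 0 of 17 were higher and 3 lower (0.779% and 4.07%), and in Pomc neurons 0 of 17 were higher and 1 lower (0.991% and 3.79%). The median log2 ratio of the members lay between -0.35 in Dlx1 neurons and 0.11 in Pomc neurons. These counts shift with the settings, and the named genes below are given with their own intervals.

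Some members had at least 30 UMIs over both groups but too few expected in the gate to be counted, and those high in a gate are described with their families below. Gabrg1 had a log2 ratio of 1.35 in Pomc neurons (0.07 to 2.43) and 1.17 in Dlx1 neurons, from 7 UMIs and with an interval that includes equality (-0.21 to 2.31). Among those that were low, with 1 or 2 UMIs in the gate and an interval below equality, were Chrnb4 (-2.09, -5.17 to -0.17) and Grm2 (-2.86, -8.20 to -0.32) in Otp neurons. Gabbr2 (-2.95, -8.26 to -0.44) and Grin1 (-1.94, -5.00 to -0.06, past 2-fold in 7 of 9 alternative settings) were low in Dlx1 neurons, Chrna3 in Pomc neurons (-2.12, -5.18 to -0.24) and Grm2 in Fezf1/Nr5a1 neurons (-3.08, -8.42 to -0.54). Robo3 neurons were low in Gabrq (-2.14, -5.21 to -0.25) and Grm7 (-3.32, -8.64 to -0.81), and Gbx2 neurons in Gabra3 (-2.62, -7.93 to -0.13) and Grm5 (-3.07, -8.38 to -0.58). Gbx2 neurons had no UMI of Gabre, Gabrg1, Grm7 or Chrnb4, which allows each up to 9.13 CPM.

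Among GABA-A alpha subunits, which shape GABA affinity and drug binding, Gabra2 and Gabra5 were the main transcripts, with 45.0% and 34.6% of alpha UMIs in neurons. They changed places between gates. Gabra5, an alpha subunit best known from extrasynaptic receptors, stood at 69.8 CPM in Otp neurons, 69.5 in Fezf1/Nr5a1, 64.8 in Pomc and 33.3 in Dlx1 neurons. It was at 5.74 in Robo3 and 6.09 in Gbx2 neurons, from 8 and 2 UMIs. The log2 ratio to other neurons was -3.18 in Robo3 neurons (-4.40 to -2.20) and -3.00 in Gbx2 neurons (-6.05 to -1.15). The intervals of the Otp, Pomc and Fezf1/Nr5a1 levels overlapped.

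Gabra2, a synaptic alpha subunit, ran the other way. It was highest in Gbx2 neurons at 146 CPM (108 to 194) and Robo3 neurons at 103 (87.1 to 122), and lowest in Fezf1/Nr5a1 neurons at 38.4 (30.8 to 47.3). Dlx1 neurons at 67.7, Pomc neurons at 46.8 and Otp neurons at 42.8 lay between. In Robo3 neurons Gabra2 held 82.8% of the alpha UMIs (76.3 to 88.1), against 27.8% in Fezf1/Nr5a1 neurons (23.0 to 33.1). In Gbx2 neurons the log2 ratio of Gabra2 to other neurons was 1.27 (0.82 to 1.69), past 2-fold in 8 of 9 alternative settings.

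Gabra4, a subunit of extrasynaptic receptors in the mature thalamus, was high in a single gate. It reached 88.3 CPM in Gbx2 neurons (59.1 to 127), from 29 UMIs, and 1.29 to 4.30 in the other 5 gates. The log2 ratio to other neurons was 4.32 (3.64 to 4.97), and it stayed between 4.10 and 4.72 under the alternative settings. A Gabra4 UMI was found in 24.7% of Gbx2 neurons against 2.097% of all neurons, and in 15.1% against 1.13% at equal depth. In Gbx2 neurons it made up 36.3% of alpha UMIs, second to Gabra2. Too few UMIs were expected in this small gate for Gabra4 to enter the count above. Gabra3 stood at 27.6 CPM in Pomc neurons, 8.61 in Robo3 neurons (log2 ratio -1.17, -2.14 to -0.34) and 3.04 in Gbx2 neurons.

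Among beta subunits, Gabrb2 had 10 UMIs in neurons. Gabrb1 was at 4.30 in Robo3 neurons (-1.62, -3.09 to -0.47) and at 18.3 to 19.2 in Gbx2, Fezf1/Nr5a1 and Pomc neurons. Among gamma subunits, which anchor the receptor at synapses, Gabrg3 stood out in Pomc neurons at 29.98 against 10.5 in all neurons, a log2 ratio to other neurons of 1.67 (0.99 to 2.29) from 25 UMIs, and held 35.2% of their gamma UMIs. Gabrg3 was at 2.87 in Robo3 neurons (-1.98, -3.87 to -0.59). Gabre, at 9.85 CPM in Dlx1 neurons from 8 UMIs, had a log2 ratio of 2.04 there (0.72 to 3.18).

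GABA-A genes sit in clusters, and the share of the GABA-A UMIs from one of these differed between gates. The cluster Gabrg1-Gabra2-Gabra4-Gabrb1 on chromosome 5 (70751047 to 72149037, GRCm38) held 17.3% in Otp neurons (14.5 to 20.3), 18.3% in Fezf1/Nr5a1, 22.03% in Pomc, 32.6% in Dlx1 (26.4 to 39.2), 49.4% in Robo3 neurons (43.8 to 54.98) and 61.5% in Gbx2 neurons (52.7 to 69.7). In Robo3 neurons that share came almost wholly from Gabra2, since Gabrb1 of the same cluster was low there. The gates with the higher shares are those that differed in habenula, thalamus and Nkx2-1 values above, and the part of these in the result was not tested.

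**Figure D4:**
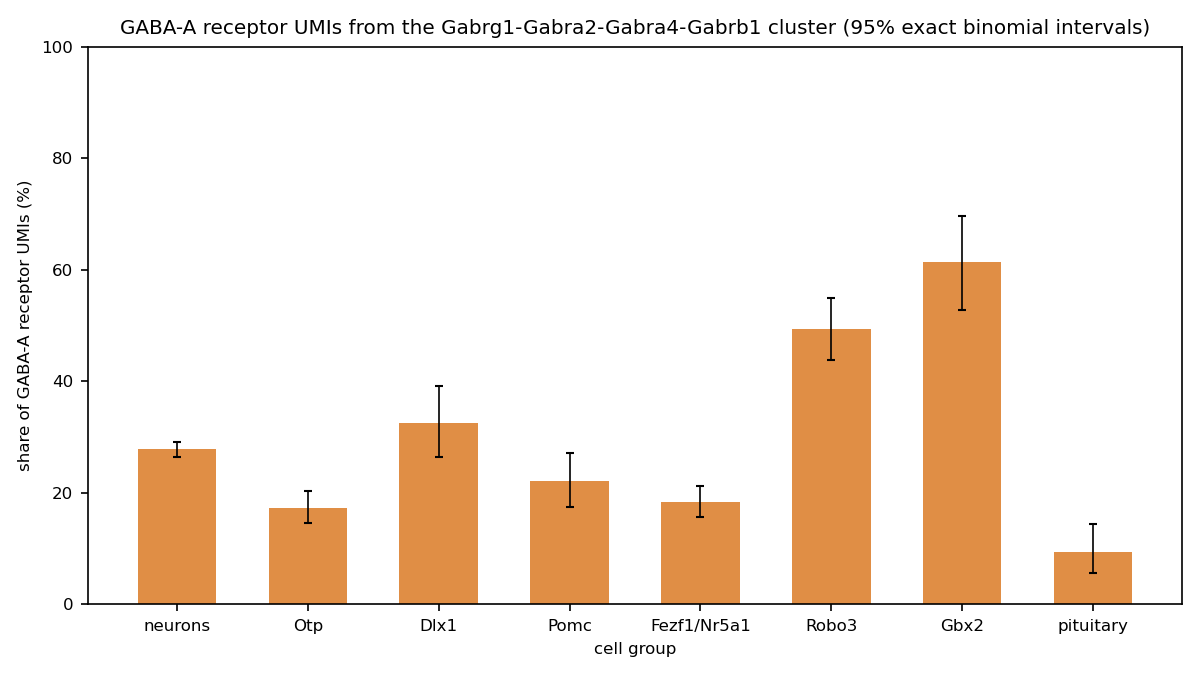
Share of GABA-A receptor UMIs (percent, bars, with 95% exact binomial intervals) from the Gabrg1-Gabra2-Gabra4-Gabrb1 cluster in all neurons, each neuron gate and pituitary cells. The share is 17.3% in Otp neurons, and it is highest in Robo3 (49.4%) and Gbx2 (61.5%) neurons.

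Gabbr1, the GABA-binding GABA-B subunit, was the second most abundant member after Gria2 with 4867 UMIs. It stood at 523 CPM in Robo3 neurons (486 to 562) and between 167 and 187 in the other 5 gates, whose intervals overlapped. The high level was not confined to Robo3 neurons, since the GABA-B genes together, mostly Gabbr1, were at 347 CPM in neurons of no gate (333 to 362). In neurons of several gates they were at 249. The log2 ratio in Robo3 neurons was 1.03 (0.91 to 1.15), just past 2-fold, and it fell below 2-fold in 4 of 9 alternative settings (lowest 0.82). Gabbr2, without which Gabbr1 does not reach the membrane, was far rarer, at 9.06 in neurons. It too was highest in Robo3 neurons, at 25.1 CPM (log2 ratio 1.75, 1.15 to 2.31), and was at 4.42 in Otp neurons (-1.14, -2.30 to -0.17, past 2-fold in 8 of 9 alternative settings with the nearest to equality at -0.53). Both genes were detected together in 7.56% of Robo3 neurons (4.996 to 10.9) and in 2.67% of all neurons, and in 4.13% and 1.10% at equal depth. Kctd8, an auxiliary GABA-B subunit, stood at 80.3 CPM in Robo3 neurons against 17.2 in the others (log2 ratio 2.22). In progenitors Gabbr1 was at 86.8 CPM, above the 33.3 of vascular and mesenchymal cells.

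Gria2, the AMPA subunit that blocks calcium entry once its transcript is edited, was the most abundant receptor gene, with 4881 UMIs and 76.2% of AMPA UMIs in neurons. Its level ran from 231 CPM in Gbx2 neurons to 379 in Dlx1 neurons, and no gate was 2-fold from the other neurons. Gria1 was at 73.2 in Robo3 neurons, 53.1 in Otp, 34.5 in Dlx1 and 18.3 in Gbx2 neurons, where its log2 ratio was -1.79 (-3.24 to -0.66) from 6 UMIs. Gria4 was highest in Dlx1 neurons at 35.7 (0.82, 0.21 to 1.37). Gria3 was at 9.34 in Otp neurons (1.06, 0.23 to 1.83), and passed 2-fold in 5 of 9 alternative settings. Against progenitors, Gria1 was 12.4-fold higher in neurons, Gria2 4.47-fold, Gria4 3.16-fold and Gria3 1.36-fold (log2 0.45, -0.55 to 1.63).

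Grin2b, the NMDA subunit that prevails before birth, held 72.7% of NMDA UMIs in neurons and was 28.1-fold higher there than in progenitors (log2 4.81, 3.83 to 6.03). It stood at 132 CPM in Otp neurons, 120 in Pomc, 119 in Gbx2, 99.7 in Fezf1/Nr5a1 and 88.7 in Dlx1 neurons. Robo3 neurons were apart at 35.9 (log2 ratio -1.47, -1.91 to -1.07). There Grin3a, a subunit that lowers calcium entry, was as frequent as Grin2b, with 41.5% (33.0 to 50.5) and 38.5% (30.1 to 47.4) of the NMDA UMIs. Grin3a was at 38.7 CPM in Robo3 neurons (1.13, 0.68 to 1.56), 32.4 in Fezf1/Nr5a1 neurons, 10.3 in Otp neurons (-1.02, -1.74 to -0.38) and 8.62 in Dlx1 neurons (-1.22, -2.55 to -0.16). These ratios stayed past 2-fold in 8 of 9 alternative settings for Robo3 neurons and 7 of 9 for Dlx1 neurons, but in only 3 of 9 for Otp neurons, where they ran from -1.76 to -0.58. Grin1, the subunit that all NMDA channels require, was at 9.06 in neurons, and a cell with both Grin1 and a Grin2 gene was found in 1.42% of neurons. Grin2a, the adult partner, was at 6.54 in neurons and 6.67 in progenitors. Its log2 ratio in Otp neurons was -1.03 (-2.38 to 0.07), an interval that includes equality.

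Kainate transcripts were mostly Grik5, a high-affinity subunit that needs Grik1, Grik2 or Grik3 to form a channel, with 65.0% of kainate UMIs in neurons. Grik5 ran from 55.2 CPM in Pomc neurons (40.4 to 73.6) to 89.4 in Otp neurons (76.9 to 103), with the other 4 gates between, and was at 46.3 in progenitors, 49.9 in pituitary and 33.3 in vascular and mesenchymal cells. Grik3 was at 19.6 in progenitors against 9.45 in neurons, a log2 ratio of -1.05 (-1.54 to -0.55). It stayed past 2-fold in 3 of 8 alternative settings and was -0.29 without the 10% of cells with most UMIs. Grik2 was 2.34-fold higher in neurons (log2 1.23, 0.35 to 2.26), and was at 5.18 in Fezf1/Nr5a1 neurons (log2 ratio to other neurons -1.18, -2.16 to -0.33). These calls held in 7 of 8 and 7 of 9 alternative settings. In Otp neurons Grik4 was at 5.90 (-1.67, -2.64 to -0.84) and Grik3 at 3.93 (-1.39, -2.63 to -0.37).

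Of the metabotropic glutamate receptors, Grm5, which couples to phospholipase C, held 54.3% of the UMIs in neurons and was 15.1-fold above progenitors. It was highest in Fezf1/Nr5a1 neurons at 42.3 CPM (34.3 to 51.5), where the log2 ratio was 0.94 (0.59 to 1.27), and was at 32.8 in neurons of no gate. It was low in Otp neurons at 7.37 (-1.92, -2.77 to -1.17), Dlx1 neurons at 8.62 (-1.59, -2.92 to -0.54) and Pomc neurons at 12.0 (-1.11, -2.18 to -0.21), the last past 2-fold in 3 of 9 alternative settings. Grm7, a presynaptic receptor, was at 10.4 in Fezf1/Nr5a1 neurons and 6.39 in Otp neurons. Grm2 was at 12.2 in Robo3 neurons from 17 UMIs (2.42, 1.48 to 3.31), with 32 UMIs in all other neurons together. Grm4 was the member highest in progenitors relative to neurons, at 12.9 against 3.24 CPM (log2 ratio -2.00, -2.67 to -1.30), and at 12.8 in the ungated non-neurons. In 8 alternative settings that ratio stayed between -2.14 and -1.37, although at equal depth and without the 10% of cells with most UMIs it had too few expected UMIs to be counted.

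Nicotinic transcripts in neurons were mainly Chrna4 (42.4% of the family's UMIs) and Chrnb2 (33.1%), the subunits of the common brain receptor. Chrna4 was at 42.3 CPM in Fezf1/Nr5a1 neurons (log2 ratio to other neurons 0.80, 0.45 to 1.13), 16.7 in Otp neurons and 11.1 in Dlx1 neurons (-1.33, -2.47 to -0.39). Chrnb2 was between 18.99 and 28.8 in the 6 gates, though its reads cannot be told apart from the antisense overlap with Adar. The neighbours Chrna3 and Chrnb4, whose promoters are printed above, were highest in Robo3 neurons. Chrna3 was at 34.4 CPM in Robo3 neurons (25.4 to 45.6), at 2.398 to 6.09 in Otp, Pomc, Fezf1/Nr5a1 and Gbx2 neurons, and had no UMI in Dlx1 neurons, which allows up to 3.69. Chrnb4 was at 20.1 in Robo3 neurons (13.3 to 29.0), at 0.983 in Otp and 2.398 in Pomc neurons, and had no UMI in Dlx1, Fezf1/Nr5a1 and Gbx2 neurons. Neurons of no gate held Chrna3 at 11.5 (9.10 to 14.4) and Chrnb4 at 3.60, and with Chrna5 this cluster had 104 of its 215 neuronal UMIs there. The 6 habenula markers summed to 1070 CPM in neurons of no gate and 3152 in Robo3 neurons, against 874 in all neurons, and their part in the result was not tested.

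The log2 ratio of Robo3 neurons to other neurons was 2.19 for Chrna3 (1.67 to 2.70, 48 against 106 UMIs) and 3.23 for Chrnb4 (2.44 to 4.03, 28 against 30 UMIs), and both stayed past 2-fold in 9 of 9 alternative settings. Chrna5, the third gene of this cluster, had 3 UMIs in neurons. Both genes were found in the same cell in 5 of 344 Robo3 neurons (1.45%) and 13 of 4006 neurons (0.325%), 6 of these 13 in neurons of no gate. Chrna7, the subunit of the other common brain receptor, had 2 UMIs in neurons. Against progenitors, Chrna4 was 9.27-fold higher in neurons, Chrna3 5.97-fold and Chrnb2 4.60-fold.

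**Figure D5:**
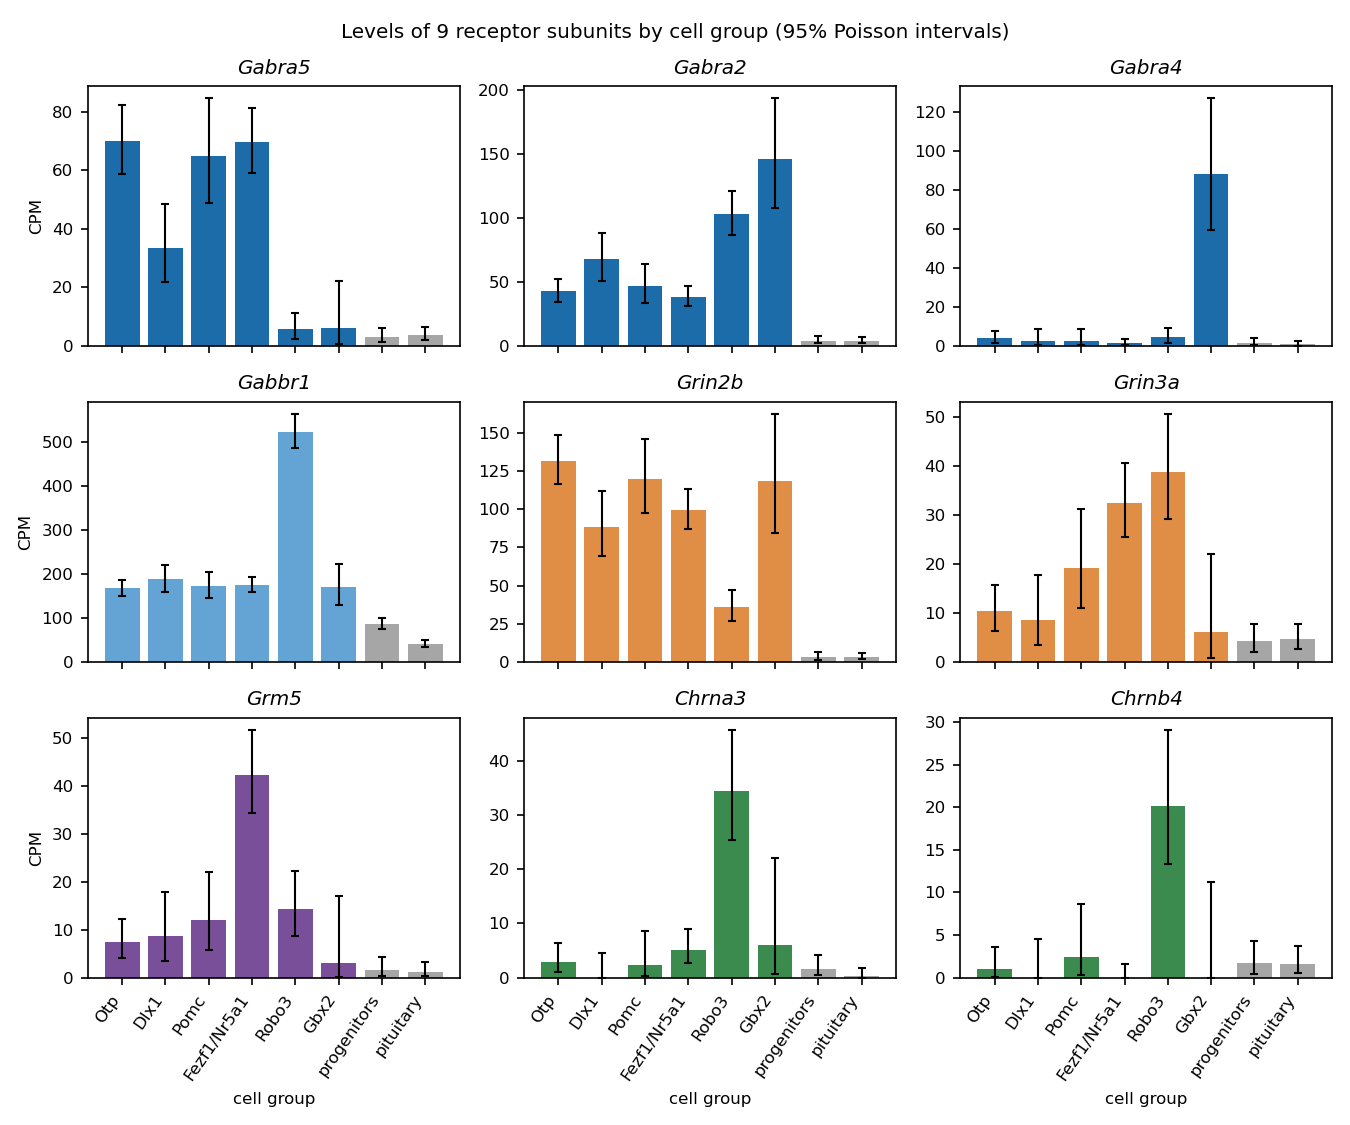
Level (CPM, linear axes from 0, with 95% Poisson intervals) of 9 receptor subunits in the 6 neuron gates (coloured by family), progenitors and pituitary cells (grey). Gabra5 is low in Robo3 and Gbx2 neurons, Gabra4 is high in Gbx2 neurons, Gabbr1, Chrna3 and Chrnb4 are highest in Robo3 neurons and Grm5 is highest in Fezf1/Nr5a1 neurons.

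Pituitary cells, which lie below the ARC, had a median depth of 4201 UMIs. Pou1f1 was found in 66.1% of them, Pomc in 33.1% and Tbx19 in 10.8%. AMPA genes together were at 53.4 CPM in them, against 372 in neurons and 26.8 in vascular and mesenchymal cells. Kainate genes were at 62.5, against 110 and 48.1. Within these lower sums, Gria2 held 47.6% of their AMPA UMIs and Grik5 79.9% of their kainate UMIs. Some other subunits stood above their level in neurons. Gria3 was at 23.5 CPM against 5.11 in neurons, and took 44.1% of the AMPA UMIs. Grm7 was at 13.2 against 6.60, Grin2a at 9.42 against 6.54, and Chrnb1, a subunit of the muscle receptor, at 5.65 against 0.259. Gabra5 and Gabra2 were each at 3.77. In all, 0 of 629 pituitary cells held an alpha, a beta and a gamma UMI together, which allows up to 0.585% of cells with such UMIs (exact binomial), against 3.79% of neurons. At equal depth the values were 0 of 621 (up to 0.592%) and 0.698% of neurons (0.456 to 1.02), and these intervals overlapped.

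Finding several subunits in 1 cell takes depth. Alpha, beta and gamma UMIs together were seen in 9.88% of Pomc neurons and 8.50% of Fezf1/Nr5a1 neurons, the deepest single gates, and in 3.002% of Otp neurons. At equal depth these shares were 1.22%, 1.44% and 1.06%, with overlapping intervals. An AMPA and an NMDA UMI together were seen in 25.1% of neurons and 1.83% of progenitors, and at equal depth in 12.1% and 0.568%.

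The partner proteins of these receptors were read from a list of 56 genes, of which 55 were in the table and 42 could be compared between neurons and progenitors. Of these, 21 were over 2-fold higher in neurons and 1 lower, with a median log2 ratio of 0.99, where 14.7% and 13.3% of all genes compared were higher and lower. Against other neurons, 0 of 42 partners were over 2-fold higher and 3 lower in Otp neurons, 3 and 6 of 42 in Fezf1/Nr5a1, 0 and 1 of 32 in Dlx1, 0 and 5 of 32 in Pomc, 1 and 5 of 38 in Robo3, and 1 and 2 of 16 in Gbx2 neurons. Over all genes compared, the shares higher and lower were 1.04% and 4.32% in Otp, 1.31% and 5% in Fezf1/Nr5a1, 0.779% and 4.07% in Dlx1, 0.991% and 3.79% in Pomc, 2.54% and 6.16% in Robo3, and 1.97% and 6.55% in Gbx2 neurons, so gate counts this small say little about the partners. Cacng2 (stargazin), which carries AMPA receptors to the synapse, was at 39.0 CPM in neurons with 0 UMIs in progenitors, at least 31.2-fold higher by the limit of 3 UMIs. Cnih2, another AMPA auxiliary subunit, was at 668 against 122. Shank1, a scaffold of excitatory synapses, was at 201 against 30.03. The chloride transporters lay on opposite sides, with the extruder Slc12a5 (KCC2) at 26.4 against 2.92 (log2 ratio 3.18) and the importer Slc12a2 (NKCC1) at 11.8 against 27.5 (-1.22). Gphn (gephyrin), the scaffold of GABA-A receptors, was at 30.7 against 17.1, below 2-fold. Within neurons, Glra2, the fetal glycine receptor subunit, was at 60.0 in Fezf1/Nr5a1 neurons against 17.1 in the others (1.81), and Slc12a5 was at 8.61 in Robo3 neurons against 28.2 (-1.71).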

How the data were processed

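The authors pooled dissected Pomc-eGfp ARC tissue, dissociated it with papain and sequenced 1 droplet (10x Chromium) library in 4 runs. Per the labels, reads were processed with Cell Ranger 2.1.1 (STAR 2.4.0, mm10) and Seurat 2.0; the methods name the ready-made mm10 reference package of Cell Ranger as the annotation, and the strand setting is not given in the sources used here. The deposited values are raw UMI counts of 27998 genes in 6465 barcodes (26277265 UMIs, all barcodes distinct), with no column left unmatched. Cells were kept at 200 to 4500 genes, at most 10% mitochondrial UMIs and at most 10 Hba-a1 UMIs, as the methods state, leaving 6351 cells of 1748 to 16836 UMIs (median 3338), more than the study clustered. No doublet caller was run beyond the limit on genes.

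UMIs were summed per group and divided by the group's total to give CPM (Python 3.11.15, numpy 2.4.6, pandas 2.3.3, scipy 1.17.1). Levels have exact Poisson intervals, ratios conditional binomial intervals and shares Clopper-Pearson intervals, all 95% and for counting error only, since UMIs of 1 pool hold no replicate error. The interval calculation was tested on simulated data. With 1 sample no edgeR or other test was possible, and a gene was called past 2-fold by its ratio alone. Progenitors exclude cells with at least 3 UMIs of a non-neural marker list; with them there would be 847. Cells under 2167 UMIs (635) were left out of thinned values, which used seed 1. Named genes were the 3 most abundant of each family, members past 2-fold with at least 30 UMIs over both groups, those defining a family's make-up, and at most 10 partners past 2-fold. Gphn was named after its values were seen. Some members entered the counts and sums but are not reported here by name. Gene positions are from GENCODE on GRCm38 (the same assembly as mm10), and promoters from RefSeq, which matched 40 of the 57 members. Members, gates and gene lists were chosen with earlier results of these data known. In all, 15 alternative settings were tried.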

Additional observations from a re-analysis of the deposited data

How the results depend on the processing

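With 1 pooled library no replicate could be left out, and no paired analysis was possible because the columns carry no run or replicate number. Of 747 values of single members under the alternatives, 729 stayed the same within their counting interval, 16 moved and 2 reversed: Grm4 in Pomc neurons against other neurons, -1.48 from 1 UMI, was 1.001 with overlapping gates and 0.43 with gates of at least 2 UMIs. Of 236 counts, family ratios and shares, 156 stayed the same and 80 moved, and the cause was not tested except where fewer genes or cells were compared by construction. Log2 ratios of families moved for GABA-B (1.71) to 1.41 with each cell weighted equally, 1.46 with progenitors of at least 2 Sox2 UMIs and 1.96 with progenitors by Sox2 and Stmn2 alone, which also moved AMPA (2.24) to 2.50. The shares of neurons with a family UMI fell at equal depth and at a minimum of 2 UMIs: AMPA 50.7% and 37.9%, GABA-A 44.1% and 30.6%, GABA-B 37.7% and 24.3%, NMDA 22.2% and 10.9%, kainate 21.2% and 7.66%, nicotinic 12.1% and 3.79%, metabotropic glutamate 8.16% and 2.77%.

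Members over 2-fold in neurons against progenitors (23 higher, 2 lower) were 14 and 0 where at least 30 UMIs were expected. The lower count was also 0 at equal depth and without the 10% of cells with most UMIs, where Grik3 fell short of 2-fold and Grm4 (-2.06 and -1.86) had too few expected UMIs to be counted, and 1 at 3-fold, with equal weight, at 5% mitochondrial UMIs, with progenitors by Sox2 and Stmn2 alone and at 2 Sox2 UMIs. The gate counts were small and moved easily. For Otp neurons (1 higher, 8 lower) the higher count was 5 at 1.5-fold and 0 at 3-fold, at 30 expected UMIs, at equal depth, at 5% mitochondrial UMIs, with 5 Stmn2 UMIs and without the deepest cells, and the lower count was 14 at 1.5-fold, 3 at 3-fold and at 30 expected UMIs, 5 with 5 Stmn2 UMIs and 4 with overlapping gates. For Dlx1 neurons (0 higher, 3 lower) the higher count was 1 at 1.5-fold and with overlapping gates, and the lower count 7 at 1.5-fold, 1 at 3-fold and 0 at 30 expected UMIs. For Pomc neurons (0 higher, 1 lower) the higher count was 2 at 1.5-fold and 1 with overlapping gates and with gates of 2 UMIs, and the lower count 2 at 1.5-fold and 0 at 3-fold, at 30 expected UMIs, at equal depth, at 5% mitochondrial UMIs, without the deepest cells and without Pomc neurons holding a pituitary UMI. For Fezf1/Nr5a1 neurons (0 higher, 3 lower) the higher count was 7 at 1.5-fold, 3 at 5% mitochondrial UMIs, 2 with equal weight, with gates of 2 UMIs and without the deepest cells, and 1 at equal depth, with no filter on cells and with overlapping gates, and the lower count 8 at 1.5-fold, 1 at 3-fold and 0 at 30 expected UMIs. For Robo3 neurons (4 higher, 5 lower) the higher count was 2 at 3-fold, at equal depth and with 5 Stmn2 UMIs and 1 at 30 expected UMIs and with gates of 2 UMIs, and the lower count 3 at 3-fold, at equal depth and with gates of 2 UMIs and 2 at 30 expected UMIs. For Gbx2 neurons (1 higher, 2 lower) the higher count was 2 at 1.5-fold and 0 at 3-fold, at 30 expected UMIs and with 5 Stmn2 UMIs, and the lower count 1 with gates of 2 UMIs and 0 at 30 expected UMIs. Depth limits the rarest members most: 14 members had 1 to 49 UMIs.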
